A study of Mus musculus with 4 samples.

Results

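The 10 genes described here, Fos, Fosb, Jun, Junb, Atf3, Egr1, Nr4a1, Ier2, Dusp1 and Btg2, are immediate early genes, and their rows were found by symbol. All 10 had a row in every gene table, among the 32285 genes counted in dissociated cells and the 19465 genes with a probe in fixed sections. Both kinds of sample held the tenotomy site of mice at day 7 after burn/tenotomy (BT), a hindlimb tendon transection combined with a dorsal burn that leads to heterotopic ossification (HO). The scRNA-seq samples came from mice labelled Hoxa11CreER;ROSA-LSL-TdTomato;Hif1a fl/fl, which received tamoxifen at 75 mg/kg for 5 days. The labels give a washout of 9 days and no age for these mice. That genotype names a tamoxifen-inducible Cre driven by Hoxa11, a TdTomato reporter and a floxed Hif1a, but the labels do not write whether Cre was present or absent. One scRNA-seq library pooled replicates 1 and 2 (the pooled library), and the other held replicate 3 (the replicate 3 library). The spatial samples were 2 Visium sections, A1 and B1, of fixed, paraffin-embedded tissue from wild-type C57BL/6 mice aged 10 weeks, and the labels do not say whether these were separate mice. The cells were unsorted and were released with 750 U/ml collagenase type 1 and 7 U/ml dispase II for 45 min at 37 °C, whereas the sections were never dissociated. Dissociation, chemistry, genotype, the labelled tamoxifen and the mix of cells therefore differed together between cells and sections and cannot be told apart. Age may differ too.

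Immediate early genes are transcribed within minutes of a stimulus, without new protein synthesis, through transcription factors that already sit in the resting cell. Their RNAs are short-lived, so that a level reflects recent signalling. Injury, cytokines and growth factors induce them in tissue, and enzymatic digestion at body temperature is known to induce them as well, which makes a fixed section a useful companion to dissociated cells. Fos and Fosb pair with Jun and Junb in the dimeric AP-1 transcription factors. Atf3 is a stress-induced member of the ATF/CREB family, Egr1 a zinc finger transcription factor and Nr4a1 an orphan nuclear receptor. Ier2 encodes a small nuclear protein. Dusp1, a phosphatase that switches off MAP kinases, and Btg2, an antiproliferative cofactor of mRNA deadenylation, act in feedback on the same response.

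A shared element of many immediate early promoters is the cAMP response element, bound by CREB and ATF proteins, whose half-site reads TGACG. RefSeq promoter windows of GRCm38.p6, 300 bases long from 250 bases before the transcription start into the first exon, were matched for 8 of the 10 genes, all but Egr1 and Ier2. The half-site lay on either strand in 7 of the 8 windows, all but that of Jun, compared with 20.8% of 32851 promoter windows. The full palindrome TGACGTCA, which contains the half-site on both strands, was in 2 of the 8 windows, those of Dusp1 and Btg2, compared with 1.79% of all windows. The AP-1 site TGACTCA, searched on both strands, was in 0 of the 8 windows and in 5.20% of all windows. The CArG box was in 0 of the 8 windows and in 1.63% of all windows. Sequence further upstream, and that of Egr1 and Ier2, was not searched for any of these sites. A match is a description of the letters only. The 4 windows with more than 1 half-site are shown, because they belong to genes whose levels in sections and cells are described at length, in lower case with the half-site on either strand (TGACG or CGTCA) in capitals, each read along its gene.
Fos: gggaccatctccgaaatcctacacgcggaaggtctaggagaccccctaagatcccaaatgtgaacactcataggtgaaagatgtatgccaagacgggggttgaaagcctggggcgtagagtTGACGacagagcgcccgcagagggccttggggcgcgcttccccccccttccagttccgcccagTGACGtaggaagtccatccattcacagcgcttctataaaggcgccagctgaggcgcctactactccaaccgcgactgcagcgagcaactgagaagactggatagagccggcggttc
Dusp1: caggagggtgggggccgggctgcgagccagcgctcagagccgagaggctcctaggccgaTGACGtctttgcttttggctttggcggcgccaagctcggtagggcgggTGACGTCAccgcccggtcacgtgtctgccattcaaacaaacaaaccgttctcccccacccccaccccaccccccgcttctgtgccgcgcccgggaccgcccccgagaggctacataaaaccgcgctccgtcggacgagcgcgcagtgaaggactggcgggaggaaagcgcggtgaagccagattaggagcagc
Btg2: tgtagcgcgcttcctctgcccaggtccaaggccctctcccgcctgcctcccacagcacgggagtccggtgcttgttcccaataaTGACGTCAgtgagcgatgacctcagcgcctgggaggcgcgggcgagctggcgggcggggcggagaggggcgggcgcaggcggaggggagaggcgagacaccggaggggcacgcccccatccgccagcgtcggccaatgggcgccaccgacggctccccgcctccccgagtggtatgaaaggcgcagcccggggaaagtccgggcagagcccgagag
Nr4a1: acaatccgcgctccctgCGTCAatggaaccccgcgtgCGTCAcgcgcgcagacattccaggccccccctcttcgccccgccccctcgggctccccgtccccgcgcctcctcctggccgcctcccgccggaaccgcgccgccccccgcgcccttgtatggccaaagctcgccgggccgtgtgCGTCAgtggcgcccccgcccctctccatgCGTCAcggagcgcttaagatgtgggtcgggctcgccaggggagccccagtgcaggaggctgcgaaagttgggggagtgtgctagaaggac
The Fos window is chr12:85473640-85473939 (plus strand), with half-sites beginning 129 and 66 bases before the start. The Dusp1 window is chr17:26508423-26508722 (minus strand), and its palindrome begins 143 bases before the start. The Btg2 window is chr1:134079106-134079405 (minus strand), with the palindrome 166 bases before the start. The Nr4a1 window is chr15:101266596-101266895 (plus strand), and its 4 half-sites, all on the opposite strand, begin between 233 and 40 bases before the start.

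The tables held 2303 and 1266 cell barcodes and 3555 and 3195 spots. After filtering, 1276 and 795 cells with medians of 13144 and 17213 UMIs (counted molecules) and 3504 and 3185 spots with medians of 460 and 518 UMIs remained. A further 32 and 17 neutrophils with few ribosomal UMIs were counted in their class only, and not in these cells or in the whole-library levels. Cells were assigned to classes by marker genes that exclude the 10 genes, and 9 classes with at least 20 cells in each library were compared, each with 3 to 5 of its own markers among its 10 leading genes (Thbs4, Fmod, Tnmd and Col11a1, tendon and matrix genes, for mesenchymal progenitor cells, MPCs). A spot covers several cells. A class of spots was named for its markers only. Spots were assigned to a class when they held more UMIs of its markers than the section-wide rate would give, 71 and 72 spots passed for more than 1 class, and 2790 and 2432 spots passed for none (unmarked spots). Levels are UMIs of a gene scaled to the same total in every class (CPM), so in sections fewer cells of a type and less RNA per cell cannot be told apart. With 2 samples of each kind, p-values measure only the spread between these samples. In comparisons of classes that is the spread of the class differences from sample to sample. Spots that passed for more than 1 class were counted in each, so the sums of spot classes are not independent.

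In the fixed sections, immediate early RNA was concentrated in spots that carried myeloid markers. These were 40 spots in section A1 and 143 in section B1, and the 10 genes together made up 2.44% and 2.43% of all their UMIs, or 24355 and 24330 CPM. The 8 other spot classes held 1738 to 2922 CPM in section A1 and 1782 to 3192 CPM in section B1. All 10 genes had their highest level in myeloid-marker spots in both sections, and how many of all genes did so was not counted. All 10 were also higher there than the mean of the other classes (edgeR quasi-likelihood test, Benjamini-Hochberg adjusted p of 8.03e-09 or less), where 19.2% of the 4090 genes tested were higher and 8.51% lower. The median difference of the 10 genes was 4.77 on the log2 scale, against -0.09 over all genes tested. In a test for any difference among the 9 classes all 10 passed, as did 43.4% of genes. By the size of the difference the 10 genes ranked between 40th, Egr1, and 532nd, Jun, of the 4090.

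**Figure D1:**
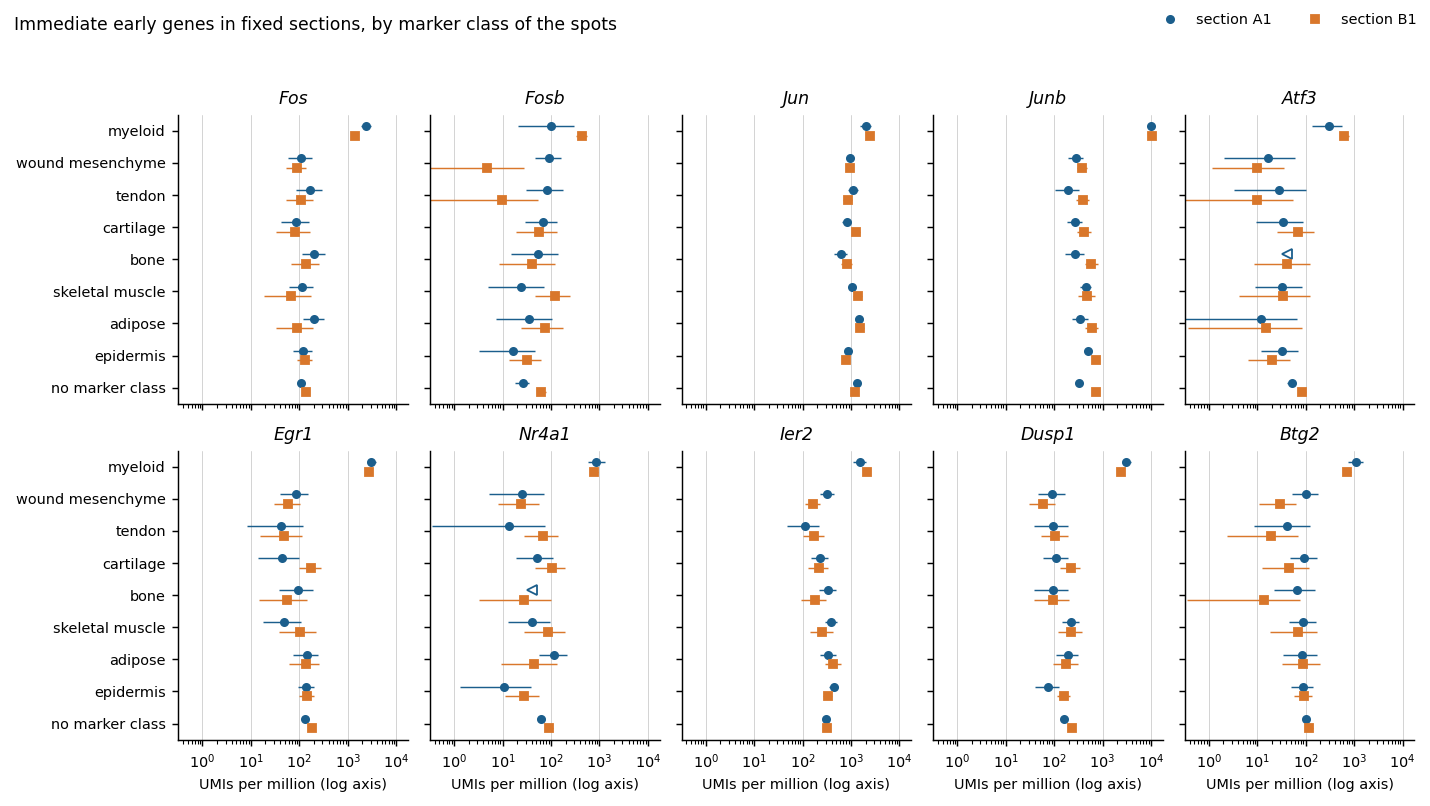
Level of each gene in CPM (log axis) by marker class of the spots, myeloid-marker spots at the top, in section A1 (circles) and section B1 (squares). Bars are exact 95% Poisson intervals for counting error, open triangles mark the upper limit that a count of 0 allows, and Junb stands at 9849 and 10688 CPM in myeloid-marker spots against 192 to 734 CPM elsewhere.

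Among the AP-1 genes, Junb was the most sharply localized. It stood at 9849 CPM in the myeloid-marker spots of section A1 and 10688 CPM in those of section B1, against 192 to 502 CPM and 376 to 734 CPM in the other classes of the 2 sections. The difference was 5.29 ± 0.13 (log2, SE). Fos, the partner of Jun proteins, was at 2379 and 1396 CPM in myeloid-marker spots, against 85.8 to 202 CPM and 68.1 to 140 CPM in the other classes, a difference of 4.57 ± 0.19. The myeloid-marker and other values did not overlap for either gene in either section, and the share of all genes with such a gap was not counted.

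Jun behaved differently from Junb and Fos, in that it was well detected throughout the sections. It was at 2044 and 2524 CPM in myeloid-marker spots, against 620 to 1455 CPM and 790 to 1529 CPM in the other classes, and its difference of 1.90 ± 0.17 was the smallest of the 10. Fosb was sparse. In section A1 its 101 CPM in myeloid-marker spots rested on 3 UMIs (95% Poisson interval 20.7 to 294 CPM) and stood next to 92.3 CPM in wound mesenchyme spots. In section B1 it was at 430 CPM in myeloid-marker spots, against 4.88 to 119 CPM in the other classes. The Fosb difference of 3.61 ± 0.45 was thus carried by section B1, with log2 ratios of 1.22 within section A1 and 3.57 within section B1.

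The other transcription factors followed Junb. Egr1, with the largest difference of the 10 genes at 5.64 ± 0.18, was at 3082 and 2693 CPM in myeloid-marker spots, against 41.2 to 142 CPM and 48.4 to 181 CPM in the other classes. Nr4a1 was at 871 and 783 CPM, against 0 to 118 CPM and 24.4 to 104 CPM (4.97 ± 0.27). Atf3 was at 302 and 627 CPM, against 0 to 51.9 CPM and 9.69 to 83.8 CPM (5.05 ± 0.33). Atf3 passed the filter on low counts through the myeloid-marker spots alone, so it was tested only because it was high there. With no filter on low counts all 10 genes were also higher in these spots. Atf3 and Nr4a1 had no UMI in the bone-marker spots of section A1, where 3 UMIs would have been 40.4 CPM.

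Ier2 and the feedback genes were highest in the same spots. Dusp1 was at 3082 and 2369 CPM in myeloid-marker spots, against 75.5 to 220 CPM and 58.6 to 234 CPM in the other classes (4.98 ± 0.17). Btg2 was at 1106 and 726 CPM, against 41.2 to 102 CPM and 13.7 to 120 CPM (4.44 ± 0.25). Ier2, at 1541 and 2094 CPM against 110 to 442 CPM and 166 to 435 CPM, had a smaller difference of 3.57 ± 0.20. Levels of these 3 genes in myeloid-marker spots lay above every other class in both sections.

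The spots chosen by myeloid markers were led by Il1b, Srgn, Il1r2, Cxcl3, Acod1, Cd14, S100a9, Ccl4, S100a8 and Hdc, of which 6 are markers of the gate. Of the 14 myeloid markers measured, 1 was at 0 in section A1 and none in section B1. Summed over 10 neutrophil markers the level in these spots was 19162 and 20522 CPM, against 909 and 1556 CPM in unmarked spots. Summed over 10 macrophage markers it was 4824 and 3969 CPM, against 2042 and 1734 CPM in unmarked spots. The gate itself holds neutrophil markers, and which cells within a spot held the immediate early RNA is not resolved. They were also deeper than other spots, with medians of 620.5 and 815 UMIs against 458 and 505.5 UMIs.

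To compare spots at one depth, each spot with at least 200 UMIs was thinned to 200 UMIs, and shallower spots were left out. This kept 39 of 40 and 143 of 143 myeloid-marker spots, and 2418 of 2790 and 2344 of 2432 unmarked spots. Unthinned shares are over all kept spots of a class. Thinned myeloid-marker spots held a median of 2 of the 10 genes in section A1 and 3 in section B1, against 0 in every other class of both sections. None of the 10 genes was seen in 20.5% and 9.79% of thinned myeloid-marker spots, against 52.0% to 69.2% in the other classes. Junb had a UMI in 56.4% and 76.2% of thinned myeloid-marker spots (65.0% and 95.1% unthinned), against 6.95% and 13.5% of thinned unmarked spots. Fos had a UMI in 28.2% and 22.4% of thinned myeloid-marker spots (52.5% and 60.1% unthinned), against 2.48% and 3.11% of thinned unmarked spots.

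The myeloid-marker spots formed patches, and 26 of 40 in section A1 and 138 of 143 in section B1 touched another one. In section A1 they made up 1.14% of spots and 1.32% of UMIs but held 28.3% of the Junb, 26.3% of the Egr1, 21.9% of the Dusp1 and 21.6% of the Fos UMIs. In section B1 they made up 4.49% of spots and 6.15% of UMIs and held 51.7% of the Junb, 52.6% of the Egr1, 43.2% of the Dusp1 and 41.8% of the Fos UMIs. Jun again stood apart, with 2.19% and 12.5% of its UMIs in these spots. The remaining genes lay between, with Fosb in section A1, at 3.95%, nearest to Jun.

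**Figure D2:**
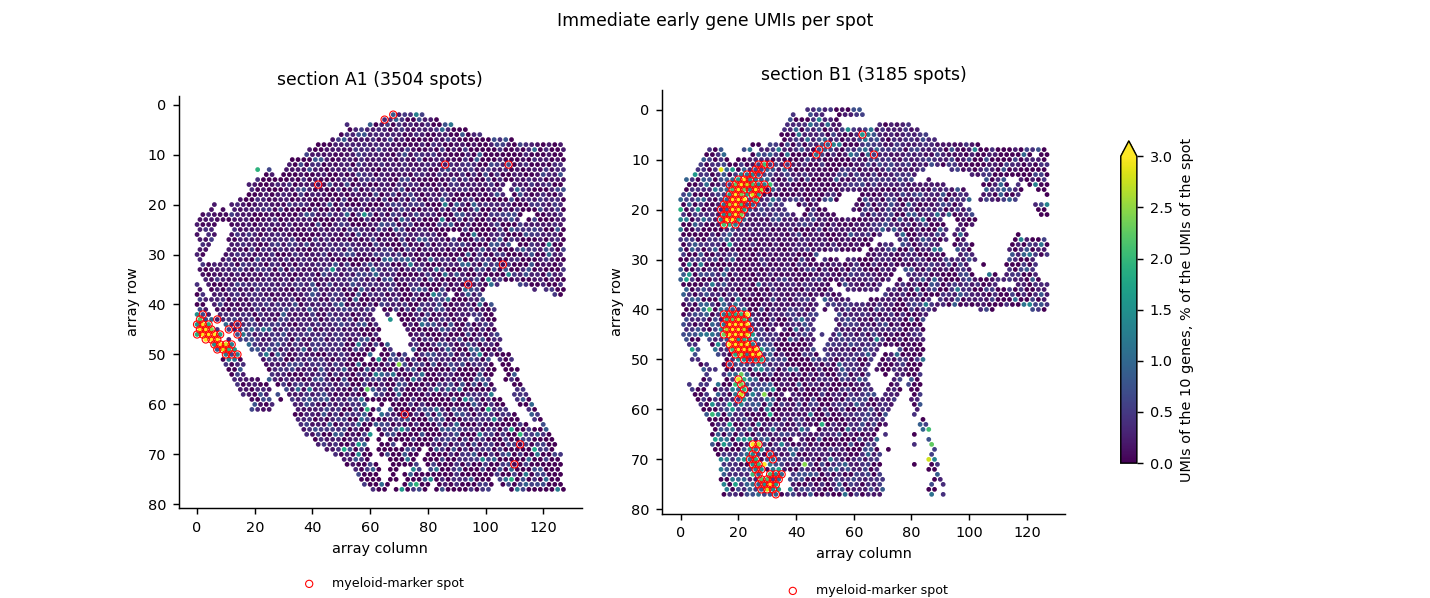
Each kept spot of section A1 (3504 spots) and section B1 (3185 spots) at its array row and column, coloured by the UMIs of the 10 genes as a percentage of all UMIs of the spot, with the scale capped at 3%. Red rings mark the 40 and 143 myeloid-marker spots, and the brightest spots lie in the ringed patches.

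With distance from the nearest myeloid-marker spot the summed level fell away within a few spots. In section A1 the 10 genes together were at 24355 CPM in myeloid-marker spots, 3718 CPM in spots adjacent to them, 2330 CPM at a distance of 2 spots and 2520 CPM beyond 8 spots. In section B1 the values were 24330, 6457, 4000 and 2669 CPM at the same distances. Myeloid marker UMIs fell along the same axis, with 32563, 2071, 1364 and 978 CPM in section A1 and 31521, 5598, 3044 and 1366 CPM in section B1. Junb in section B1 was at 10688 CPM in the spots themselves, 2481 CPM in adjacent spots, 1197 CPM at 2 spots and 454 CPM beyond 8 spots, whereas Jun was at 2524, 1092, 1271 and 1292 CPM. The part of the myeloid marker gradient in that of the 10 genes was not tested.

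Spatial autocorrelation (Moran's I over adjacent spots) was computed for every gene with at least 50 UMIs. Junb ranked 59th of 7234 genes in section A1 (I of 0.136) and 14th of 8501 in section B1 (0.361), where the medians over all genes were 0.005 and 0.007. Egr1 ranked 82nd and 23rd and Fos 80th and 112th. Of the 10 genes, 8 stood among the highest 10% of genes in section A1 and all 10 in section B1. The 2 outside in section A1 were Fosb, with an I of -0.003, and Atf3, at 0.023, which had 76 and 105 UMIs in that section.

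The sections differed from each other in these genes. Over the whole section, the B1 to A1 ratio was 2.76 for Junb, 2.33 for Fosb, 2.11 for Atf3 and 2.03 for Egr1, and between 1.01 for Jun and 1.83 for Nr4a1 for the others. With myeloid-marker spots left out, the ratio was 1.96 for Junb, 1.37 for Egr1, 1.10 for Fos and 0.95 for Jun. Within myeloid-marker spots it was 4.28 for Fosb, 2.08 for Atf3, 1.09 for Junb and 0.59 for Fos. Between the pooled library and the replicate 3 library the ratio of the whole-library levels lay between 0.90 and 1.03 for all 10 genes.

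The other spot classes were each compared in the same way. In spots with wound mesenchyme markers (Postn, Tnc, Cthrc1, collagens), Dusp1 was at 92.3 and 58.6 CPM, Egr1 at 83.9 and 58.6 CPM, Junb at 277 and 376 CPM and Fos at 109 and 87.9 CPM. These 4 genes were lower than the mean of the other classes (-1.70, -1.23, -1.10 and -0.94 on the log2 scale in that order), where 2.52% of genes were lower. That mean contained the myeloid-marker spots, as it did for every class but their own. In epidermis-marker spots Nr4a1, Dusp1 and Jun were lower, with 9.95% of genes lower, and in cartilage-marker spots Junb alone, with 0.807% lower. In bone-marker spots Jun alone was lower, with 0.44% lower, and in tendon-marker spots, whose leading genes were cartilage genes, Egr1, Ier2 and Junb, with 0.905% lower. No gene of the 10 passed in adipose-marker, skeletal muscle-marker or unmarked spots, where 2.62%, 4.79% and 0.489% of genes passed in either direction. Of these 12 calls, 11 did not pass in at least 1 other setting, and the exception was Dusp1 in wound mesenchyme spots.

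In the dissociated cells, all 10 genes were detected in each of the 9 fitted classes. Summed over the 10 genes, the level in these classes ran from 6134 CPM in T or NK cells to 11486 CPM in pericytes or smooth muscle cells of the pooled library, and from 5279 CPM in T or NK cells to 10534 CPM in fibroblasts of the replicate 3 library. Macrophages held 10536 and 10283 CPM, neutrophils 6414 and 8206 CPM, and MPCs 7883 and 8464 CPM. Levels of cell classes are scaled over all 32285 genes and those of spot classes over 19465, so they are not on the same scale. Dendritic cells by the gate, 15 and 11 cells and too few to be fitted, held 4238 and 4646 CPM. All 10 genes differed among the classes (edgeR quasi-likelihood F test, adjusted p of 5.21e-05 or less), as did 85.2% of the 12649 genes tested, so passing this test sets the 10 genes little apart from others.

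**Figure D3:**
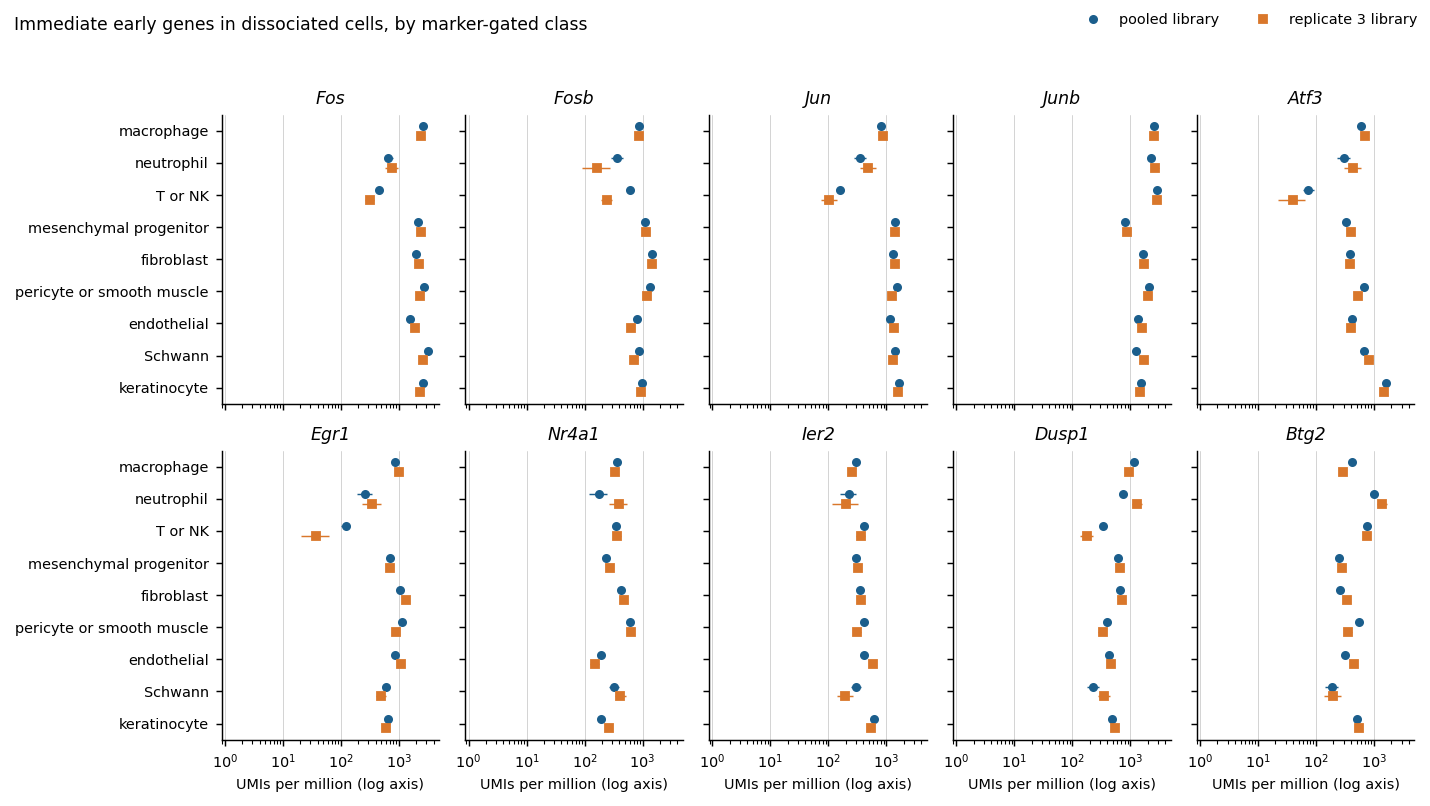
Level of each gene in CPM (log axis) by marker-gated class of dissociated cells, in the pooled library (circles) and the replicate 3 library (squares), with exact 95% Poisson intervals for counting error. T or NK cells stand lowest for Fos, Jun, Atf3 and Egr1 in both libraries and highest for Junb, at 2876 and 2869 CPM.

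T or NK cells had AP-1 genes at opposite ends of the range. Fos was at 454 and 314 CPM in T or NK cells, against 664 to 3153 CPM and 753 to 2674 CPM in the other classes, and Jun at 161 and 104 CPM, against 357 to 1633 CPM and 483 to 1608 CPM. Junb was at 2876 and 2869 CPM, against 820 to 2578 CPM and 885 to 2720 CPM. In the comparison with the mean of the other classes, Atf3 (-3.21 ± 0.24), Egr1 (-3.10 ± 0.29), Jun (-3.08 ± 0.22), Fos (-2.41 ± 0.21), Dusp1 (-1.12 ± 0.22) and Fosb (-1.07 ± 0.25) were lower, with 9.91% of genes lower. Btg2 (0.93 ± 0.17) and Junb (0.74 ± 0.15) were higher, with 20.6% of genes higher, and Ier2 (0.14 ± 0.17) and Nr4a1 (0.15 ± 0.16) did not pass.

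Neutrophils, 43 and 21 cells, combined high Btg2 and Dusp1 with low Fos and Fosb. Btg2 was at 1004 and 1389 CPM in neutrophils, the highest of the 9 classes in both libraries, and Dusp1 at 752 and 1330 CPM. Fos was at 664 and 753 CPM and Fosb at 368 and 165 CPM. Btg2 (1.81 ± 0.18), Dusp1 (1.20 ± 0.20) and Junb (0.70 ± 0.15) were higher than the mean of the other classes, with 12.8% of genes higher. Fosb (-1.50 ± 0.29), Fos (-1.25 ± 0.21), Jun (-1.10 ± 0.21) and Egr1 (-0.93 ± 0.29) were lower, with 11.5% of genes lower, and the median over all genes was -1.14. The Junb call was lost with no filter on low counts (0.40). Neutrophils were the shallowest of the 9 fitted classes, with medians of 3748 and 4172 UMIs.

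Macrophages had Fos, Junb, Dusp1, Egr1 and Atf3 above the mean of the other classes. Dusp1 was at 1163 and 947 CPM in macrophages and differed by 1.25 ± 0.17, and Junb was at 2578 and 2588 CPM and differed by 0.72 ± 0.14. Egr1 (0.92 ± 0.20), Atf3 (0.78 ± 0.16) and Fos (0.76 ± 0.16) were also higher, which makes 5 of 10 where 25.3% of all genes were higher. None of the 10 was lower, where 6.59% of genes were.

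In keratinocytes Atf3 set the class apart. It was at 1615 and 1467 CPM in keratinocytes, against 74.2 to 682 CPM and 40.0 to 835 CPM in the other classes, and the difference of 2.27 ± 0.14 (adjusted p = 1.36e-11) was the largest positive one of any of the 10 genes in the 9 classes. Jun (1.19 ± 0.15), Ier2 (1.04 ± 0.15), Fos (0.85 ± 0.16), Btg2 (0.58 ± 0.17) and Fosb (0.54 ± 0.21) were higher too, where 26.9% of genes were. The Fosb call was lost with a stricter gate (0.39) and without the replicate block (0.53).

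In the mesenchymal classes, Junb was at 820 and 885 CPM in MPCs, the lowest of the 9 classes in both libraries (-1.07 ± 0.17, with 9.53% of genes lower), and Btg2 was lower as well (-0.63 ± 0.18). Jun was at 1418 and 1421 CPM in MPCs (0.89 ± 0.15), and Fosb (0.72 ± 0.20), Fos (0.62 ± 0.16) and Dusp1 (0.46 ± 0.18) were also higher, with 34% of genes higher. The higher calls, 4 of 10, were thus near the share of all genes, whose median in MPCs was 0.34. The Dusp1 call was lost with DESeq2 (0.46, adjusted p = 0.0738) and without the replicate block (0.46). Fibroblasts had the highest Fosb of the 9 classes, 1441 and 1452 CPM, and Egr1, at 1067 and 1337 CPM, was higher there by 1.31 ± 0.19. Fosb, Jun, Nr4a1, Dusp1 and Fos were also higher in fibroblasts, where 27.8% of genes were, but with a stricter gate none of these 5 passed and only Egr1 did. As for keratinocytes, that gate set the class against fewer other classes.

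Among the vascular and glial classes, pericytes or smooth muscle cells had the highest Nr4a1, at 597 and 636 CPM (0.97 ± 0.15). Egr1, Fosb, Jun and Fos were higher in them by 0.54 to 0.83, with 20.3% of genes higher, and Dusp1 was lower (-0.68 ± 0.21), with 6.59% lower. Endothelial cells had low Nr4a1, 193 and 149 CPM (-1.17 ± 0.18), and slightly low Junb (-0.50 ± 0.16), where 6.1% of genes were lower, with Egr1 higher (0.63 ± 0.20), where 19.4% were higher. The Junb call was lost with no filter on low counts (-0.48). Schwann cells, 33 and 20 cells, had the highest Fos of the 9 classes, 3153 and 2674 CPM. In them Btg2 (-1.69 ± 0.23), Dusp1 (-1.38 ± 0.24), Ier2 (-0.91 ± 0.21) and Junb (-0.70 ± 0.17) were lower, with 6.1% lower, and Fos was higher (0.50 ± 0.17), with 13.6% higher. The Fos call was lost without the ribosomal minimum (0.40).

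Most cells with at least 2000 UMIs carried several of these RNAs. Such cells were each thinned to 2000 UMIs, and shallower cells were left out. In the replicate 3 library 44 of 55 keratinocytes and 43 of 54 endothelial cells remained. The median number of the 10 genes detected per thinned cell was between 3 and 8 over classes and libraries. The share of thinned cells with none was between 0% and 9.09%. Unthinned shares are over all cells of a class. Fos had a UMI in 81.3% and 79.5% of thinned MPCs (93.4% and 91.5% unthinned), against 33.1% and 27.9% of thinned T or NK cells. Junb had a UMI in 95.7% and 93.0% of thinned T or NK cells, and Jun in 13.7% and 16.3%. These shares can be set against 806 and 305 low-gene barcodes, in which red blood cell genes took 84.6% and 84.4% of UMIs. They held 90.2 and 77.8 CPM of the 10 genes together, Fos in 4.96% and 8.20% and Junb in 4.96% and 3.61% of barcodes, at medians of 1849.5 and 3376 UMIs. Red blood cell UMIs leave little depth for other genes in these barcodes, so their levels and shares are not at like depth with the thinned cells. Cells gated by skeletal muscle markers, 21 and 17 cells with medians of 1423 and 1061 UMIs, held 250 CPM (95% Poisson interval 148 to 395) and 323 CPM (130 to 667), the lowest of any gated class, and were too few in the replicate 3 library to be fitted.

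Across all kept cells and spots, each of the 10 genes was higher in dissociated cells than in fixed sections. Fos was at 2983 and 3228 CPM in cells, against 145 and 205 CPM in sections, over the genes in both tables, and Fosb at 1504 and 1570 CPM, against 33.7 and 78.4 CPM. Their differences of 5.14 ± 0.31 and 5.78 ± 0.35 (log2, SE) ranked 191st and 112th of 18498 genes. Atf3 was at 666 and 730 CPM in cells, against 46.6 and 98.4 CPM in sections (4.27 ± 0.30). The cells lay far above both sections for these 3 genes.

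**Figure D4:**
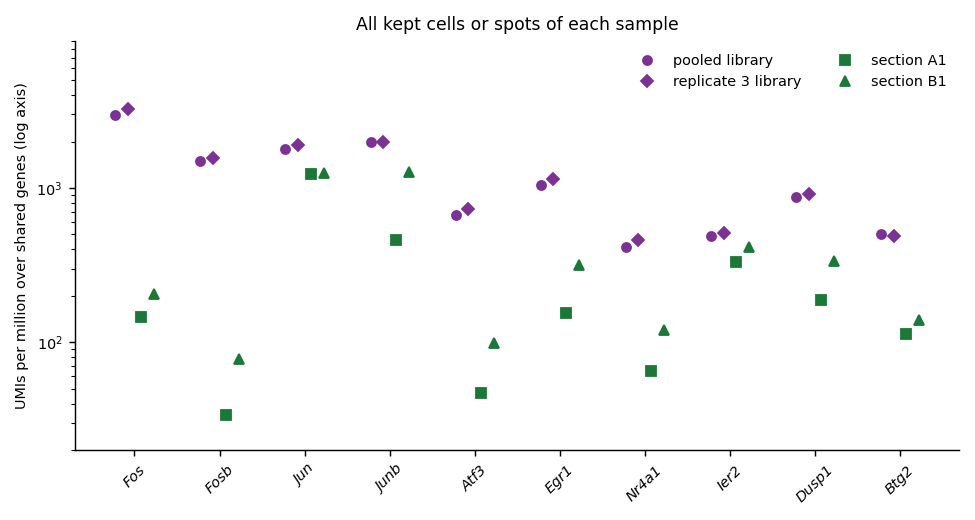
Level of each gene in CPM over the genes in both tables (log axis), in the 2 cell libraries (circles and diamonds) and the 2 sections (squares and triangles). Fos stands at 2983 and 3228 CPM in cells against 145 and 205 CPM in sections, whereas Jun stands at 1796 and 1907 CPM against 1236 and 1243 CPM.

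Jun and Ier2 differed least between the assays. Jun was at 1796 and 1907 CPM in cells, against 1236 and 1243 CPM in sections (1.56 ± 0.25), and Ier2 at 488 and 510 CPM, against 333 and 412 CPM (1.41 ± 0.21). Junb was at 1982 and 1974 CPM in cells, against 460 and 1270 CPM in sections (2.21 ± 0.34), and was the gene on which the sections disagreed most. Nr4a1 (3.24 ± 0.26), Egr1 (3.24 ± 0.29), Btg2 (2.96 ± 0.22) and Dusp1 (2.78 ± 0.26) stood between. The adjusted p of the 10 genes was 2.55e-05 or less, but 77.5% of the 18498 genes passed, with 32.7% higher and 44.7% lower in cells and a median over all genes of -0.49. Scaled by total count alone the median of all genes moved to -1.48, with 3599 genes higher and 11049 lower against 6056 and 8274 by the main scaling, and Jun and Ier2 were then higher by 0.58 and 0.42.

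Other lists read against this comparison moved in the same direction. Of 10 heat shock genes tested, 9 were higher in cells and none lower, with a median of 2.99 and Hsp90aa1 (6.57), Hspa1a (4.96) and Dnaja1 (4.96), all chaperones, foremost. Of 37 other early response genes 29 were higher and 3 lower, with a median of 2.00, led by Nr4a2 (5.96), Egr3 (4.31) and Tnfaip3 (4.31). Of 10 reference genes, chosen as housekeeping genes, 8 were higher and 1 lower, with a median of 2.01, led by Ywhaz (4.91), B2m (4.44) and Hprt (3.73). The median of the 10 immediate early genes was 3.10. The 3 leading housekeeping genes thus differed between the assays by amounts within the range of the immediate early genes, from 1.41 to 5.78.

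A capture rate that is the same in all classes of a sample cancels in a ratio between 2 of them. The contrast of myeloid with mesenchymal classes was therefore compared between the assays. Background signal, doublets and the other cells in a spot do not cancel in this way, and their part was not measured. Myeloid cells were macrophages and neutrophils together, mesenchymal cells were MPCs and fibroblasts together, and in sections the myeloid-marker and wound mesenchyme spots were used. Macrophages gave 2588080 of the 2770330 myeloid cell UMIs in the pooled library and 1737452 of 1822394 in the replicate 3 library. The myeloid-marker spots held more neutrophil than macrophage marker RNA, but their gate itself holds neutrophil markers. The myeloid classes of the assays may therefore differ in their mix, which was not measured. In cells, Junb (1.41 ± 0.30), Atf3 (0.83 ± 0.26), Dusp1 (0.72 ± 0.26) and Btg2 (0.58 ± 0.22) were higher in myeloid cells, with 27.1% of 11027 genes higher. Jun was lower (-0.76 ± 0.28), with 32.1% lower. Fos (0.12 ± 0.29), Egr1 (0.22 ± 0.26), Nr4a1 (0.33 ± 0.20), Ier2 (-0.21 ± 0.24) and Fosb (-0.48 ± 0.27) did not pass. In sections all 10 were higher in myeloid-marker spots, by between 1.33 ± 0.31 for Jun and 5.47 ± 0.57 for Atf3, with 9% of genes higher.

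The contrast was smaller in cells than in sections for all 10 genes by the test of the difference itself, from -5.19 ± 0.47 for Egr1 to -2.08 ± 0.42 for Jun (edgeR interaction, adjusted p of 2.66e-05 or less). Of all genes 13.9% had a contrast that was smaller in cells and 11.1% one that was larger, and the median was -0.21. Nr4a1 (-4.79 ± 0.49), Atf3 (-4.64 ± 0.66), Dusp1 (-4.52 ± 0.47), Fos (-4.11 ± 0.49), Fosb (-3.64 ± 0.59), Junb (-3.59 ± 0.45), Btg2 (-3.41 ± 0.45) and Ier2 (-3.33 ± 0.39) lay between. Between 9.91% of genes, for Egr1, and 25.9%, for Jun, had a still lower value. Without section B1 the Fosb value was -0.35 and did not pass, and the contrasts in sections alone were -0.15 for Fosb and 0.84 for Jun, neither of which passed. In cells alone, Btg2 (0.18), Dusp1 (0.47) and Jun (-0.78) did not pass without the pooled library, nor Jun (-0.85) without the replicate 3 library.

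**Figure D5:**
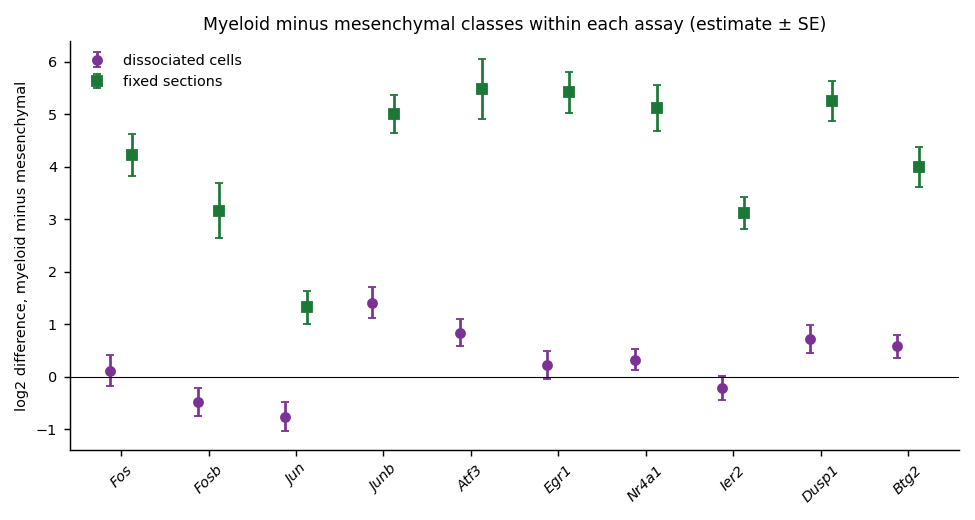
Difference between myeloid and mesenchymal classes on the log2 scale for each gene, estimate ± SE from the edgeR fit, in dissociated cells (circles) and in fixed sections (squares). Estimates in cells lie between -0.76 and 1.41 and those in sections between 1.33 and 5.47.

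The levels behind the contrast are given for both assays, although levels in cells and in spots also depend on capture by each assay. Whether the myeloid or the mesenchymal level moved between the assays was not tested. Over the genes in both tables, Fos was at 3500 and 3406 CPM in myeloid cells and 2379 and 1396 CPM in myeloid-marker spots, and Egr1 at 1158 and 1472 CPM in myeloid cells and 3082 and 2693 CPM in myeloid-marker spots. Junb was at 3650 and 3822 CPM in myeloid cells and 9849 and 10688 CPM in myeloid-marker spots. In mesenchymal classes the 10 genes together were at 11260 and 12363 CPM in cells, against 2056 and 1782 CPM in sections, and in myeloid classes at 14640 and 15008 CPM in cells, against 24355 and 24330 CPM in sections. With neutrophils alone as the myeloid cells, Fos (-2.18) and Egr1 (-1.92) were lower than in mesenchymal cells and Atf3 (-0.54), Dusp1 (0.10) and Junb (0.82) no longer passed, whereas the difference between the assays still passed for all 10 genes. The contrast of epidermal with mesenchymal classes differed between the assays for Egr1 alone (-1.45 ± 0.51, adjusted p = 0.0322), with 17.5% of genes differing, and did not pass without the pooled library (-1.61), the replicate 3 library (-1.34) or section B1 (-1.19).

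Other early response genes accompanied the 10 in the myeloid-marker spots. Of 31 tested, 26 were higher there and 3 lower, with a median of 2.59, where 19.2% of all genes were higher and 8.51% lower. The filter on low counts kept some genes through the myeloid-marker spots alone, among them Nr4a3, Dusp5 and the reference gene Ywhaz. For these a higher level there was fixed in advance, so the counts are a description only. Nr4a3, a nuclear receptor related to Nr4a1, was at 402 and 437 CPM in myeloid-marker spots, against 9.72 and 26.3 CPM in unmarked spots and no UMI in wound mesenchyme spots of either section. Ppp1r15a, which promotes recovery of translation after stress, was at 2412 and 3574 CPM, against 124 and 277 CPM in unmarked spots (5.45 ± 0.17). Dusp5, a phosphatase of ERK, was at 134 and 240 CPM, against 3.24 and 22.2 CPM in unmarked spots (5.45 ± 0.65). Of the 12 heat shock genes, 4 passed the filter on low counts, and of these Hspe1 was lower (-1.52) and the other 3 did not pass the test. In the fit against wound mesenchyme spots alone, 10 were tested, of which Hsp90aa1 (4.27 ± 1.11) and Hspa1b were higher and Hspe1 (-2.86 ± 0.48) lower. Of 5 reference genes Ywhaz (4.04 ± 0.55) and B2m (3.68 ± 0.28) were higher and Gusb (-1.33 ± 0.50) lower.

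As a description of likeness, the mean of the 10 genes over the 18 class sums of an assay, centred within each sample, was correlated with every gene above 20 CPM. Among 7581 genes in sections the most alike were Ier3 (r = 0.98), Il1b (0.97), Fcer1g (0.96), Grina (0.96) and Sdcbp (0.95), where Il1b is itself a marker of the myeloid gate. The 10 genes correlated with the mean of the other 9 at 0.59 for Fosb to 0.97 for Dusp1 in sections, where the points share 2 sections and the myeloid-marker spots stand apart from the rest. In cells the correlation of a gene with the mean of the other 9 was 0.89 for Egr1, 0.84 for Fos, 0.83 for Jun, 0.78 for Atf3 and 0.61 for Fosb. It was 0.30 for Dusp1, 0.09 for Ier2, 0.04 for Nr4a1, -0.41 for Junb and -0.53 for Btg2. The genes most alike the mean in cells were Acaa1a (0.93), Aldh2 (0.90), Ltbr (0.89), Blvrb (0.88) and Hebp1 (0.84), among 6383 genes and over classes that share 2 libraries.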

How the data were processed

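Per the labels, the authors deposited raw counts (UMIs) of each gene in each cell barcode from Cell Ranger 5.0.1 and of each gene in each spot from Space Ranger, both on mm10, with spot positions. Their own Moran's I tables were not used. Barcodes over 20% mitochondrial UMIs, under 5% ribosomal UMIs (not applied to neutrophils), under 200 genes or above the 99th percentile of UMIs or genes were left out, as were spots under 100 UMIs. Doublets were not called. The marker score of a cell had to reach 0.2 and 1.5 times that of the next class, and a spot joined each class whose marker UMIs passed a Poisson upper tail of 0.001. The 2 cell libraries shared 1 barcode.

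UMIs were summed per sample and class. The sums were fitted in edgeR 4.0.16 (R 4.3.3) by quasi-likelihood, with TMM scaling and filterByExpr. The sample was a block between classes, since these share mice, and each class was set against the equal-weight mean of the others. Adjusted p-values are those of Benjamini and Hochberg across the whole table, called under 0.05. Poisson intervals are exact at 95% and show counting error alone, and where no UMI was seen the level of 3 counts is the limit. Other settings were DESeq2 1.42.0, other scaling, filters, gates and depths, and leaving out each sample. The scripts were tested on simulated data. All 10 genes were named, and of each other list the 3 genes with the largest change past the threshold and the same direction in both samples. The 10 genes, the lists and the gates were chosen with earlier results of these data known. No comparison of Cre genotypes was made.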

Additional observations from a re-analysis of the deposited data

Results flagged for a closer look

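The contrast of myeloid with mesenchymal classes differed between dissociated cells and fixed sections by an edgeR interaction test for all 10 genes. The contrast in cells minus that in sections, on the log2 scale, was -5.19 for Egr1, -4.79 for Nr4a1, -4.64 for Atf3, -4.52 for Dusp1 and -4.11 for Fos. It was -3.64 for Fosb, -3.59 for Junb, -3.41 for Btg2, -3.33 for Ier2 and -2.08 for Jun. The contrast of epidermal with mesenchymal classes differed in the same test for Egr1 alone, by -1.45.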

How the results depend on the processing

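The 10 genes passed the test in myeloid-marker spots, in cells against sections and in the class contrasts under every setting run, except that Fosb did not pass or was not tested in 4 of them. It was not tested with spots of a single class or with a Poisson tail of 1e-05, and the difference of its class contrast was -3.38 with DESeq2 (adjusted p = 0.0754) and -0.35 without section B1. Without the replicate block, 10 genes passed for any difference among cell classes, 10 in myeloid-marker spots and 10 in the class contrasts. In the epidermal contrast 1 gene passed, Egr1 at -1.45, against 0 with DESeq2, with neutrophils alone and without the replicate block (Egr1 at -1.19, -1.11 and -1.44), and 0 to 2 when each sample was left out. Directions reversed with the stricter gate in fibroblasts, for Dusp1 (-0.011) and Fos (-0.14), and with neutrophils alone as myeloid cells for Atf3 (-0.54), Egr1 (-1.92) and Fos (-2.18). They reversed for Fosb in myeloid-marker against wound mesenchyme spots without section B1 (-0.15, against 6.63 without section A1). With a gate of macrophage markers, added after seeing the data, 11 and 6 spots passed, too few to be fitted, 7 genes passed for any difference, and in the unmarked spots, which then held the spots with neutrophil markers, Dusp1 (1.30), Fos (0.77) and Junb (1.28) were positive. With a gate of neutrophil markers or one without Il1b and G0s2, also added after seeing the data, all 10 genes passed in 32 and 103 or 38 and 118 spots. Of 52 calls among cell classes 10 did not pass in at least 1 planned setting. With the stricter gate, calls in endothelial cells, neutrophils, pericytes or smooth muscle cells and Schwann cells were not tested. The remaining classes were then set against fewer others. Fosb and Atf3 had 76 and 105 UMIs in section A1.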
